A study of Mus musculus with 120 samples.

Results

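The SLC25 family, the mitochondrial carriers, is described here across the RNA populations of mouse liver. Its members were taken by symbol: every gene of the deposited gene table whose name begins with Slc25a and a number, which gave 40 of 12252 genes. Nuclear, cytoplasmic and unfractionated RNA was sequenced from 24 livers: 12 from CryKO mice, which lack both Cry1 and Cry2, and 12 from WT mice, which were C57BL/6J males. Cry1 and Cry2 encode cryptochromes, the repressors of the circadian clock, and the deletions were present throughout the body, so that values in CryKO livers were measured in animals whose clock was disrupted in every tissue. The age was 8 to 12 weeks in the WT group, and food was given to both groups at night only. Age, sex and strain background of the CryKO mice are described only in part in the sources used here. Their part in differences between genotypes was not tested. Livers were taken every 4 h at 6 times, from ZT0, the start of the light phase without food, through ZT12, the start of the dark phase with food, to ZT20, with 2 mice per genotype and time. Each liver gave 5 libraries: nuclear total (NT) and nuclear poly(A) RNA (NA), cytoplasmic total (CT) and cytoplasmic poly(A) RNA (CA), and unfractionated total RNA (UT). A suffix E marks counts assigned to spliced transcripts (mRNA) and a suffix I those assigned to unspliced transcripts (pre-mRNA), so that CAE is poly(A) mRNA of the cytoplasm.

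Mitochondrial carriers are small proteins, most of them in the inner mitochondrial membrane, that exchange or import metabolites which the membrane itself does not let through. They are encoded in the nucleus, so their mRNA must leave it before the protein is made on cytoplasmic ribosomes and imported. In liver they link the mitochondrion to the urea cycle (ornithine, aspartate and glutamate carriers), to fatty acid oxidation (the carnitine-acylcarnitine carrier), to lipid synthesis and gluconeogenesis (the citrate and dicarboxylate carriers) and to ATP supply (the ADP/ATP and phosphate carriers). Others supply cofactors such as coenzyme A, NAD+ and folate, and the mitoferrins bring in iron for haem and iron-sulphur clusters. The family name does not place every member in that membrane, since Slc25a17 is known as a peroxisomal carrier and Slc25a46 as a protein of the outer membrane.

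Library totals ran from 7.07 M (WT, CT) to 62.5 M (CryKO, NA) estimated counts, and the shallowest were the CT libraries of WT livers. CT libraries held 16.65 to 23.33 M counts in CryKO livers and 7.07 to 15.26 M in WT livers, which do not overlap. Cry1 and Cry2 still had counts in CryKO livers, given here in CPM, the count scaled to a library of 1 M counts. In UTE, Cry1 had 7.03 to 11.7 CPM in CryKO livers, against 6.68 to 55.7 CPM in WT livers. Medians of both genes were lower in CryKO livers in UTE and CAE. In nuclear poly(A) mRNA (NAE) both medians were higher in CryKO livers, over ranges that overlapped. There Cry1 had 58.3 to 94.2 CPM in CryKO livers, against 7.68 to 59.6 CPM in WT livers. Cry2 had 160 to 222 CPM, against 52.7 to 207 CPM. The deleted parts of both genes are not given in the sources used here, so these counts do not check the labels. The 8 hepatocyte markers were detected in every group, with a summed level of 57117 to 95039 CPM in CAE of CryKO livers, against 31618 to 87274 CPM in WT livers. In UTE this sum ran from 88341 to 127733 CPM in CryKO livers, against 42135 to 108738 CPM in WT livers. Its medians were near equal in UTE, at 92459 and 92385 CPM, and were 80526 and 54533 CPM in CAE. Medians of other marker sums also differed, over ranges that overlapped. The 6 markers of sinusoidal endothelium summed to 424 to 593 CPM (median 537) in UTE of CryKO livers. In WT livers they summed to 304 to 472 CPM (median 412). The 3 detected of 6 cholangiocyte markers summed to 8.44 to 17.3 CPM (median 12.5) in CAE of CryKO livers. In WT livers they summed to 11.9 to 56.6 CPM (median 26.6). No marker detected in the table was at 0 in every library, and the part of these differences in the results below was not tested. In whole tissue, fewer cells of a type and less RNA per cell cannot be told apart. A pair of WT livers stood apart in genes chosen after their values were seen. The UT library of WT ZT0 replicate 2 held 30.3 CPM of Myom1 (at most 1.49 CPM in any other UT library) and 10.5 CPM of Cox7a1 (at most 1.16 CPM in the others), both known from striated muscle. WT ZT4 replicate 1 had the highest levels of the inflammation genes Il1rn (30.6 CPM) and S100a6 (14.2 CPM) in CAE. A CryKO library stood apart as well. The UT library of CryKO ZT20 replicate 1 held 4200196 pre-mRNA counts, against 9604301 to 13090667 in the other UT libraries of CryKO livers. Without that mouse, 6622 genes differed between genotypes in UTE (5723 with it). Rhythms called over all genes in UTE of CryKO livers were then 17 (6 with it). The labels call the 2 livers of a time replicates, and each came from a different mouse.

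Levels are given first. To compare genes, counts were set per kilobase of transcript and per 1 M counts on a log2 scale (log2 RPKM). In CAE the highest members were Slc25a5, the ubiquitous ADP/ATP translocase, Slc25a39, which carries glutathione, and Slc25a47, a carrier found mainly in liver. The median log2 RPKM of Slc25a5 was 8.40 in CryKO livers (8.19 to 8.61) and 7.95 in WT livers (7.71 to 8.29). For Slc25a47 it was 7.96 in CryKO livers (7.19 to 8.82), against 7.42 in WT livers (5.75 to 8.49). For Slc25a39 it was 8.00 in CryKO livers (7.48 to 8.70), against 7.30 in WT livers (7.04 to 7.97). The ranges of these neighbours overlapped within each genotype, so their order is not fixed beyond the spread between mice. Slc25a3, the phosphate carrier, Slc25a1, the citrate carrier, and Slc25a15, the ornithine carrier of the urea cycle, followed with median log2 RPKM of 7.72, 7.26 and 7.0 in CryKO livers, against 7.16, 6.73 and 6.45 in WT livers.

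The lowest CAE levels belonged to Slc25a2, a relative of the ornithine carrier, Slc25a27, an uncoupling protein relative known from brain, and Slc25a35, which has no settled substrate. Slc25a2 had no count in 8 of 12 CAE libraries of CryKO livers and in 5 of 12 of WT livers, and its median count was 0 in CryKO livers, against 1.5 in WT livers. Slc25a27 reached 0.184 to 0.755 CPM in CAE of CryKO livers, against 0 to 0.413 CPM in WT livers. Slc25a4, the ADP/ATP translocase of heart and muscle, stayed far below Slc25a5 in CAE, at a median log2 RPKM of 1.27 in CryKO livers and 1.07 in WT livers. As a whole the members lay above the typical gene of the table, with a median log2 RPKM in CAE of 3.64 in CryKO livers and 3.02 in WT livers, against 2.29 and 1.88 over all genes. Of the 40 members, 27 lay above the median of all genes in CAE of CryKO livers and 26 in WT livers. The RPKM scale holds no correction for the makeup of the libraries. The members took 0.325% to 0.418% of the mRNA counts of the CA libraries of CryKO livers, against 0.207% to 0.319% in WT livers, which do not overlap, and 0.321% to 0.398% of those of the UT libraries, against 0.318% to 0.406%.

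The order was different in nuclear poly(A) mRNA (NAE). Slc25a3 was the highest member there, with a median log2 RPKM of 7.81 in CryKO livers and 7.78 in WT livers, and Slc25a2 the lowest, at -1.81 and -0.93. Slc25a42, the coenzyme A carrier, was among the highest members of NAE, at a median log2 RPKM of 6.06 in CryKO livers and 5.66 in WT livers. In CAE the same gene was among the lowest, at -0.11 in CryKO livers and 1.52 in WT livers. The plot of log2 RPKM by member shows both populations side by side.

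**Figure D1:**
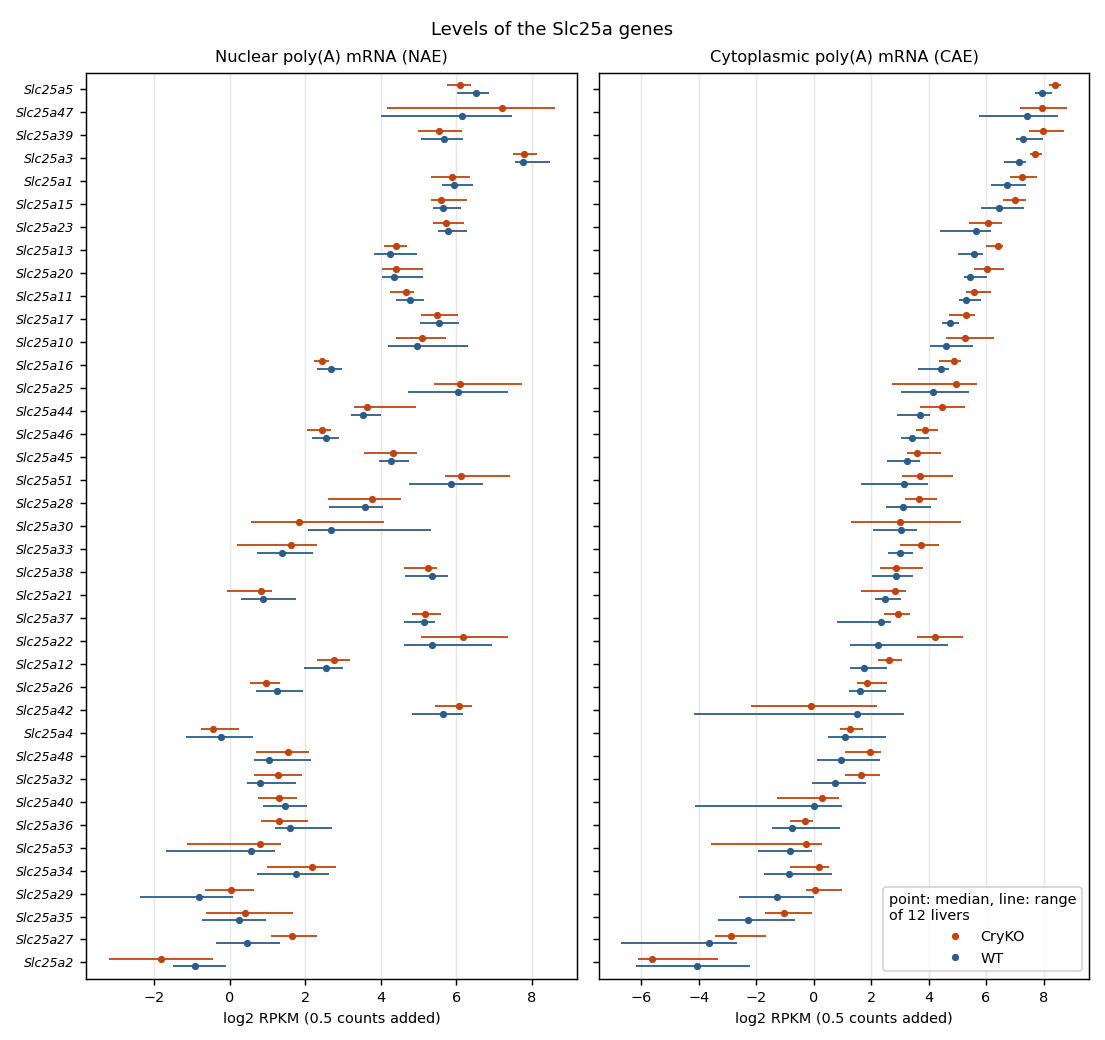
Levels of 39 members as log2 RPKM (x axis) in NAE and in CAE, with the median and the range over 12 CryKO livers and over 12 WT livers for each gene. Slc25a5, Slc25a39 and Slc25a47 lie at the top of CAE, Slc25a3 at the top of NAE, and Slc25a42 is high in NAE and low in CAE.

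In nuclear total RNA most of a member's counts came from pre-mRNA. Over members, the median share of pre-mRNA in NT was 77.8% in CryKO livers and 74.5% in WT livers, against 79.7% and 75.8% over all genes. Slc25a21, the oxodicarboxylate carrier, and Slc25a29, a carrier of basic amino acids, had the largest shares, at 99.5% and 99% in CryKO livers and 99.3% and 98.7% in WT livers. At the other end, Slc25a3 had 26.1% in CryKO livers and 21.2% in WT livers, and Slc25a5 had 29.4% and 27.7%. These genes differ in how much intron they hold, and the shares are not corrected for it. The single-exon Slc25a2 had a share of 0.0%.

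The nucleus was then compared with the cytoplasm, which asks for each carrier where its polyadenylated mRNA lay. The log2 ratio of NAE to CAE (a relative scale on which the typical gene lies near 0) was tested in each genotype with edgeR's quasi-likelihood test, with adjusted p under 0.01 as the threshold. The carriers split into both directions. The main fit took the nuclear and cytoplasmic libraries of a liver as independent. With each liver as a block, which pairs them, 15 members were higher and 19 lower in CryKO livers, and 15 and 16 in WT livers. Without the block, 15 of 39 members tested were higher in the nucleus of CryKO livers and 16 lower, against 42.9% and 39.5% of all genes. In WT livers 16 of 40 were higher and 15 lower, against 42.8% and 36.8% of all genes, so the shares of members lay close to those of the table. With a log2 ratio beyond 2 as well, 4 members were higher and 5 lower in the nucleus of CryKO livers (14.5% and 13.4% of all genes), and 7 higher and 4 lower in WT livers (16.1% and 13.4%). The median log2 ratio of the members was -0.31 in CryKO livers and -0.07 in WT livers, beside 0.09 and 0.16 over all genes tested.

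Slc25a42 had the highest ratio of nucleus to cytoplasm in CryKO livers. Its NAE level was 173 to 348 CPM (median 265) in CryKO livers, on the scale shared by both compartments, and its CAE level 0.865 to 17.6 CPM (median 3.49). In WT livers it was 99.6 to 268 CPM (median 189) in NAE and 0.258 to 39.4 CPM (median 13.6) in CAE. Every nuclear library lay above every cytoplasmic one in both genotypes, and the log2 ratio was 5.78 ± 0.38 (SE, adjusted p = 4.6e-14, edgeR) in CryKO livers and 3.68 ± 0.39 (adjusted p = 1.39e-09) in WT livers. The gene lies on the minus strand of GRCm38 at chr8:70184340-70212305. Slc25a27 had a higher ratio than Slc25a42 in WT livers, with a log2 ratio of 4.48 ± 0.19 in CryKO livers and 3.92 ± 0.31 in WT livers, but at cytoplasmic levels of at most 1.10 and 0.584 CPM.

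Slc25a37, mitoferrin 1, the iron importer of haem-making cells, was also higher in the nucleus on this relative scale. It had 194 to 336 CPM in NAE and 29.5 to 54.5 CPM in CAE of CryKO livers, and 149 to 305 CPM in NAE and 15.7 to 45.9 CPM in CAE of WT livers. The groups did not overlap, and the log2 ratio was 2.56 ± 0.11 in CryKO livers and 2.75 ± 0.17 in WT livers (adjusted p = 1.12e-14, edgeR). Slc25a34, without a settled substrate, and Slc25a51, the NAD+ carrier, were also higher in the nucleus, with log2 ratios of 2.09 and 1.96 in CryKO livers and 2.03 and 2.03 in WT livers. So was Slc25a22, a glutamate carrier, at 1.45 in CryKO livers and 2.00 in WT livers.

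The cytoplasmic side held several carriers of the main liver pathways. Slc25a5 had 79.2 to 108.7 CPM in NAE and 490 to 613 CPM in CAE of CryKO livers, and 71.7 to 152 CPM in NAE and 342 to 773 CPM in CAE of WT livers. No nuclear library reached the cytoplasmic range in either genotype, and the log2 ratio was -2.52 ± 0.07 in CryKO livers and -2.04 ± 0.13 in WT livers. Slc25a39 had 53.9 to 107.9 CPM in NAE and 324 to 711 CPM in CAE of CryKO livers, and 52 to 112.5 CPM in NAE and 307 to 515 CPM in CAE of WT livers, with log2 ratios of -2.49 ± 0.13 and -2.21 ± 0.14. Slc25a16, linked to mitochondrial coenzyme A, had 18.2 to 24 CPM in NAE and 81.3 to 149 CPM in CAE of CryKO livers, and 16.3 to 27.9 CPM in NAE and 75.7 to 140 CPM in CAE of WT livers. Its log2 ratio was -2.52 ± 0.09 in CryKO livers and -2.16 ± 0.11 in WT livers. Slc25a13, the liver aspartate-glutamate carrier that feeds the urea cycle (citrin), had log2 ratios of -1.99 in CryKO livers and -1.45 in WT livers. For Slc25a1 the ratios were -1.61 and -1.28, for Slc25a20, the carnitine-acylcarnitine carrier, -1.55 and -1.43, and for Slc25a15 -1.19 and -1.09.

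By role, all 4 citrate, dicarboxylate and oxoacid carriers were lower in the nucleus of CryKO livers and 3 of 4 in WT livers, where Slc25a10 missed the threshold, and none was higher (39.5% and 36.8% of all genes were lower). The call of Slc25a10 in CryKO livers was lost when any of 6 mice was left out. Other calls in the counts by role below were also lost this way. In CryKO livers this held for Slc25a32 (any of 8 mice), Slc25a53 (8) and Slc25a3 (5). In WT livers it held for Slc25a53 (any of 7 mice) and Slc25a44 (3), among others. Of 5 adenine nucleotide and phosphate carriers tested, 2 were higher and 2 lower in the nucleus of each genotype. Of 8 other nucleotide and cofactor carriers, 4 were higher and 3 lower in CryKO livers, and 4 higher and 2 lower in WT livers. Among the amino acid, carnitine and methyl donor carriers, 2 were higher and 5 lower of 10 tested in CryKO livers, and 3 higher and 5 lower of 11 in WT livers. The 4 iron and glutathione carriers had 2 higher and 1 lower in each genotype: Slc25a37 and Slc25a40, a relative of Slc25a39, were higher and Slc25a39 lower. Of 6 carriers without a settled substrate, 4 were higher and 1 lower in CryKO livers, and 4 higher and 2 lower in WT livers. Slc25a47 was the one called in WT livers alone, with log2 ratios of -0.60 in CryKO livers and -1.44 ± 0.33 in WT livers, a difference that did not pass the test between genotypes.

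All nuclear libraries lay above all cytoplasmic ones for 10 of 39 members tested in CryKO livers (28.1% of all genes) and for 10 of 40 in WT livers (25.9%). All lay below for 13 members in CryKO livers (27.3% of all genes) and for 13 in WT livers (23.9%). The ratio compares concentrations within each compartment and says nothing of the total amount of RNA in either. On the calibrated scale of the study, which adds offsets fitted to a published conversion of liver counts to molecules per cell, the median log2 ratio of the members was -2.68 in CryKO livers and -2.14 in WT livers, with 4 members above 0 in CryKO livers and 6 in WT livers.

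**Figure D2:**
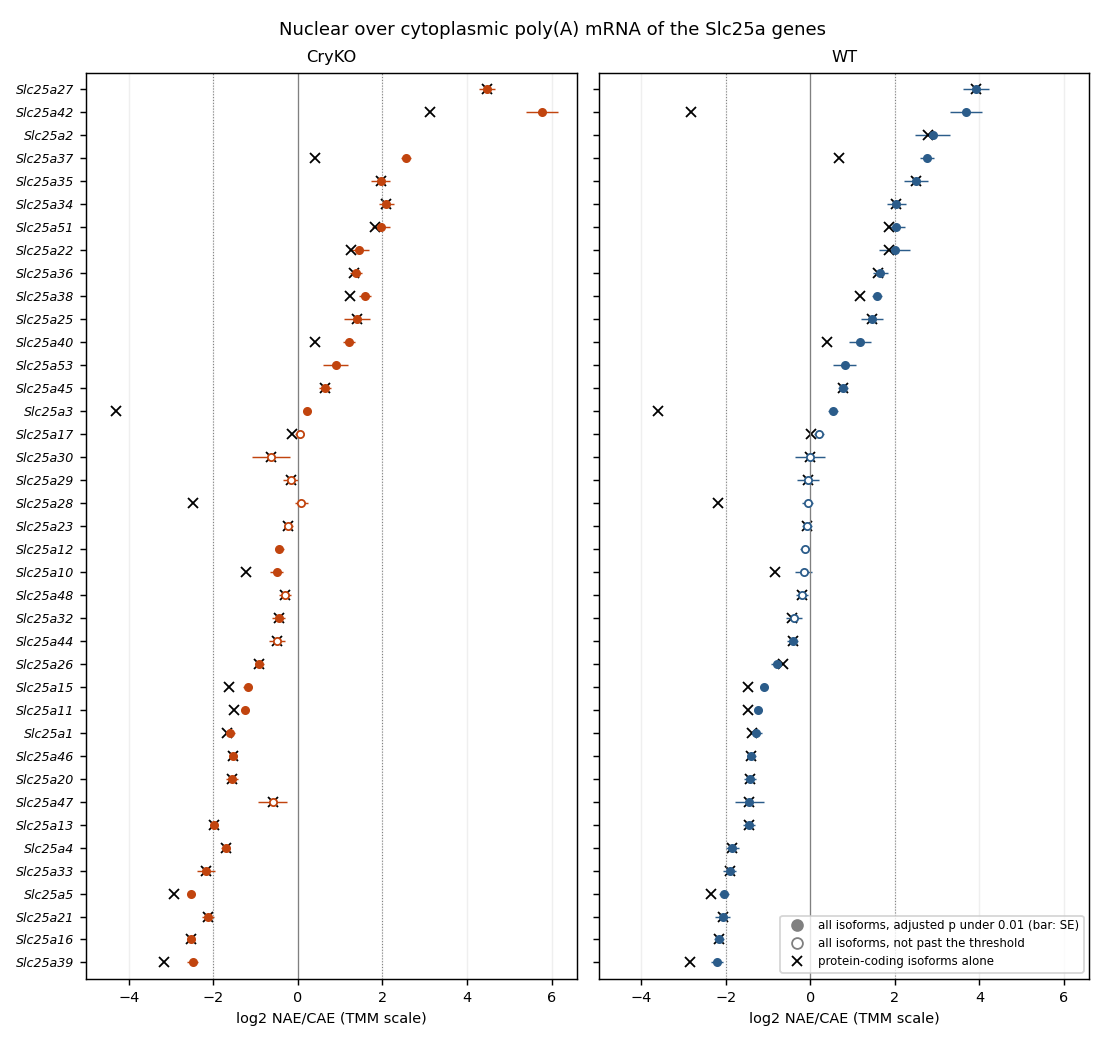
Log2 ratio of NAE to CAE for 39 members, CryKO livers on the left and WT livers on the right, with 12 livers in each. Filled points passed adjusted p under 0.01, and crosses give the ratio when only protein-coding isoforms were counted: Slc25a42 falls below 0 in WT livers and Slc25a3 in both genotypes.

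The isoform estimates give what kind of transcript these nuclear counts were. In NAE, the share of Slc25a42 counts given to isoforms annotated as retaining an intron was 93.4% in CryKO livers (84.7% to 98.5%) and 99% in WT livers (98.1% to 100%). The main one was a transcript of 3657 nt in 7 exons, with 76.7% of the counts in CryKO livers and 79.7% in WT livers. A second transcript that retains an intron, of 1804 nt in 6 exons, took most of the rest. The protein-coding isoform has 3081 nt in 9 exons. In CTE it held 95.5% of the counts in CryKO livers and 94.2% in WT livers. In CAE it was below 0.01 CPM in 8 of 12 CryKO livers, against 1 of 12 WT livers, and its share in single livers ran from 0% to 98% in CryKO livers and from 0% to 97.5% in WT livers.

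Set in CPM, the retained-intron isoforms of Slc25a42 had 170 to 323 CPM in NAE of CryKO livers and 0.353 to 6.54 CPM in CAE. In WT livers they had 99 to 264 CPM in NAE and 0.258 to 2.29 CPM in CAE. The protein-coding isoform had 2.53 to 41.1 CPM in NAE (median 16.0) and 0 to 17.3 CPM in CAE of CryKO livers, against 0 to 3.96 CPM in NAE (median 1.58) and 0 to 37.2 CPM in CAE (median 12.8) of WT livers. Most nuclear counts of this gene were thus those of transcripts with a retained intron in both genotypes, and few of these transcripts were in the cytoplasm. When the members were counted by protein-coding isoforms only, an alternative added after the data had been seen, the log2 ratio of Slc25a42 was 3.13 in CryKO livers and turned to -2.82 in WT livers.

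The cytoplasmic level of Slc25a42 also depended on the library type. In CTE it reached 42.5 to 84.5 CPM in CryKO livers, against 24.6 to 72.4 CPM in WT livers, whereas in CAE it had 0.594 to 12.5 CPM in CryKO livers, against 0.178 to 27.3 CPM in WT livers. The log2 ratio of poly(A) to total RNA in the cytoplasm had a median of -4.53 in CryKO livers (-6.31 to -2.26), within the lowest 0.974% of 11393 genes, with a median over all genes of -0.34. In WT livers it was -2.17 (-8.03 to -1.40), within the lowest 4.53% of 11205 genes, with a median over all genes of -0.36. In the nucleus the same ratio was 0.70 in CryKO livers and -0.07 in WT livers. Between total RNA libraries, the log2 ratio of nucleus to cytoplasm of Slc25a42 was 1.43 in CryKO livers and 1.98 in WT livers. Both lay on the nuclear side, as in poly(A) RNA, but here the ratio was lower in CryKO livers than in WT livers. The difference between genotypes was not tested in total RNA.

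**Figure D3:**
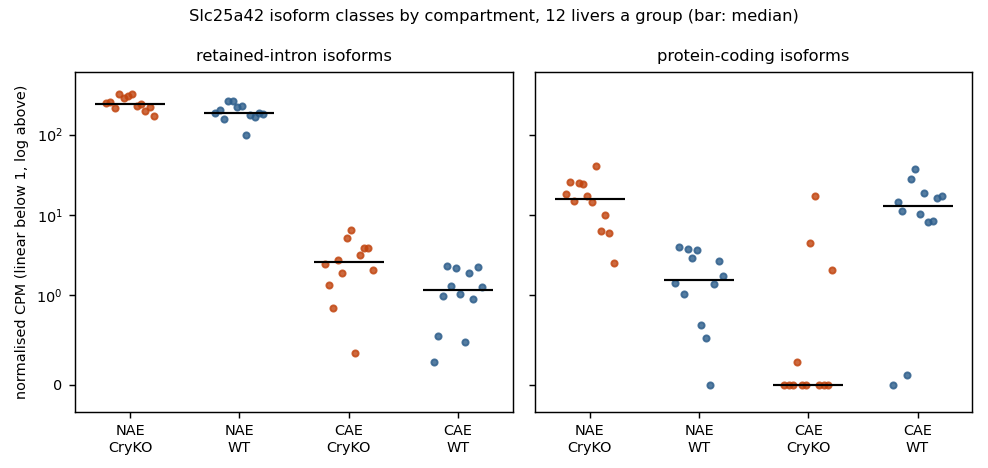
CPM of Slc25a42 in each NAE and CAE library, split into isoforms that retain an intron and the protein-coding isoform, for 12 CryKO and 12 WT livers. The retained-intron isoforms reach 170 to 323 CPM in NAE of CryKO livers and 99 to 264 CPM in NAE of WT livers and at most 6.54 CPM in CAE.

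Among the members, 17 have an annotated isoform that retains an intron. Such isoforms took over 50% of the NAE counts of 3 members in each genotype. Slc25a37 had 79.6% in CryKO livers and 78.3% in WT livers, mostly in a transcript of 5927 nt, and Slc25a3 had 69.4% and 61%. For Slc25a37 the retained-intron isoform had a median of 201 CPM in NAE and 4.59 CPM in CAE of CryKO livers, and 183 and 3.36 CPM in WT livers. Its protein-coding isoform had 48.5 CPM in NAE and 38.7 CPM in CAE of CryKO livers, and 46.7 and 30.3 CPM in WT livers, so the nuclear side was again that of the retained-intron transcript. With protein-coding isoforms only, the log2 ratio of Slc25a37 was 0.42 in CryKO livers and 0.68 in WT livers.

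Slc25a3 reversed in both genotypes. Over all isoforms its log2 ratio was 0.21 in CryKO livers and 0.53 ± 0.12 in WT livers, at 343 to 485 CPM in NAE and 315 to 402 CPM in CAE of CryKO livers, and 362 to 594 and 221 to 457 CPM in WT livers. With protein-coding isoforms only it was -4.30 in CryKO livers and -3.61 in WT livers. Its NAE counts came largely from a retained-intron transcript of 4039 nt (42.1% in CryKO livers, 37.8% in WT livers) and one annotated for nonsense-mediated decay (27% and 33.8%). For Slc25a28, mitoferrin 2, a processed transcript without a coding sequence took 86.5% of NAE counts in CryKO livers and 89.1% in WT livers, and its log2 ratio over all isoforms was 0.08 and -0.07, against -2.47 and -2.19 with coding isoforms only. Counted this way, 12 of 37 members were higher and 16 lower in the nucleus of CryKO livers, and 11 of 38 higher and 19 lower in WT livers. All other genes kept all their isoforms in these fits, so no share of all genes on the same basis stands beside these counts. Isoform shares are kallisto's estimates from reads that isoforms share, and no count here was read from a junction alone.

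Next, the ratio of nucleus to cytoplasm was compared between genotypes, by the interaction of compartment and genotype over 48 libraries. Of 39 members tested, 1 had a higher ratio in CryKO livers and 2 a lower one (3.61% and 4.86% of all genes) at adjusted p under 0.05. For Slc25a42 the log2 ratio was higher by 2.26 ± 0.42 in CryKO livers (SE, adjusted p = 0.00102, edgeR). For Slc25a13 it changed by -0.50 ± 0.14 (adjusted p = 0.023) and for Slc25a5 by -0.45 ± 0.13 (adjusted p = 0.0297), so that both were further towards the cytoplasm in CryKO livers. The last 2 calls rest on the scaling: with median-ratio factors the adjusted p was 0.0521 for Slc25a13 and 0.0705 for Slc25a5, and that of Slc25a5 passed 0.05 when any of 6 mice was left out. An alternative scale was library size, here all mRNA and pre-mRNA counts of a library without further factors, whereas the main scale used mRNA counts. With it the median of all genes shifted by -0.38, and 1 member was higher and 19 lower. The test took the nuclear and cytoplasmic libraries of a liver as independent. With each liver as a block, which pairs them, the counts of members called were the same. Over all genes 640 were then higher and 921 lower, against 424 and 571 without the block.

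CryKO livers were then compared with WT livers within each RNA population over all times, with 12 livers per genotype. The comparisons use the same mice, so their values are given side by side and not as repeats of each other. In CAE, 10 of 38 members were higher and 2 lower in CryKO livers (17.2% and 18.8% of all genes, adjusted p under 0.05). In CTE, 9 of 38 were higher and 2 lower (18.9% and 20.9% of all genes), and in NAE 7 of 40 were higher and 3 lower (8.03% and 9.11%). In UTE, 13 of 39 were higher and 11 lower (22.6% and 26.2%). The members' median log2 fold change was 0.20 in CAE, 0.14 in CTE, 0.12 in NAE and -0.02 in UTE. The split depends on the scale: with library size in place of TMM factors, 27 members were higher and 2 lower in CAE, 16 and 2 in CTE, 4 and 5 in NAE and 6 and 11 in UTE, while the median of all genes shifted by 0.35, 0.13, -0.08 and -0.08 on the log2 scale. Without WT ZT0 replicate 2 the members higher and lower were 9 and 2 in CAE, 9 and 2 in CTE, 5 and 3 in NAE and 13 and 11 in UTE, and without WT ZT4 replicate 1 they were 10 and 2, 11 and 2, 6 and 4, and 13 and 11. The medians of the hepatocyte and cholangiocyte marker sums given above differed between genotypes in CAE, and their part in these counts was not tested. The depth of CT libraries did not overlap between genotypes, as given above, and its part in the CTE counts was not tested.

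Slc25a13 (chr6:6041218-6217173, minus strand of GRCm38) was higher in CryKO livers in CAE, CTE and UTE. In UTE it had 265 to 346 CPM (median 312) in CryKO livers, against 140 to 298 CPM (median 213) in WT livers. In CAE it had 169 to 256 CPM in CryKO livers, against 85.7 to 202 CPM in WT livers, and the ranges overlapped in part in both. The log2 fold change was 0.58 ± 0.11 in CAE (adjusted p = 0.000604, edgeR), 0.50 in CTE (adjusted p = 0.000652) and 0.50 ± 0.07 in UTE (adjusted p = 1.3e-05). In NAE the medians were 117.96 CPM in CryKO livers and 104.3 CPM in WT livers, without a call.

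Slc25a22 was higher in the cytoplasm of CryKO livers. It had 23.5 to 73.3 CPM (median 40.4) in CAE of CryKO livers, against 6.87 to 61.3 CPM (median 13.5) in WT livers, and 47.2 to 119.4 CPM in CTE, against 22 to 126 CPM. The ranges overlapped, with log2 fold changes of 1.36 ± 0.30 in CAE (adjusted p = 0.00156, edgeR) and 0.83 in CTE (adjusted p = 0.00352). In UTE, the medians were 111.98 CPM in CryKO livers and 118.9 CPM in WT livers, and no call was made. Slc25a29 was higher by 0.95 ± 0.23 on the log2 scale in CAE (adjusted p = 0.00313), at 1.40 to 3.28 CPM in CryKO livers, against 0.348 to 2.28 CPM in WT livers, and by 0.89 in NAE (adjusted p = 0.00186). In CAE, 5 of 10 amino acid, carnitine and methyl donor carriers were higher in CryKO livers and none was lower (17.2% and 18.8% of all genes), among them Slc25a12, the other aspartate-glutamate carrier, at a log2 fold change of 0.52. In CTE 5 of 10 were higher (18.9% of all genes), Slc25a20 by 0.42 and Slc25a15 by 0.38 included, and Slc25a26, the carrier of S-adenosylmethionine, was lower, at -0.47 (adjusted p = 0.000966).

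The unfractionated RNA held calls that the fractions did not. Slc25a10, the dicarboxylate carrier (chr11:120491840-120499187, plus strand), had 81 to 119.2 CPM in UTE of CryKO livers, against 119.96 to 239 CPM in WT livers. Slc25a23, a calcium-regulated carrier that exchanges ATP-Mg for phosphate, had 222 to 357 CPM, against 367 to 474 CPM. Neither gene's ranges overlapped between genotypes in UTE, and the log2 fold changes were -0.60 ± 0.09 (adjusted p = 1.09e-05, edgeR) and -0.56 ± 0.06 (adjusted p = 1.11e-06). In CAE the medians ran the other way without passing the test, at 70.4 CPM in CryKO livers and 53.4 CPM in WT livers for Slc25a10, and 178 and 159 CPM for Slc25a23. The difference between the populations was not tested.

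Slc25a1 and Slc25a39 were also lower in UTE of CryKO livers. Slc25a1 had 139 to 242 CPM (median 163) in CryKO livers, against 141 to 271 CPM (median 223) in WT livers, and Slc25a39 238 to 380 CPM (median 277), against 301 to 399 CPM (median 352). Their log2 fold changes were -0.39 (adjusted p = 0.00362, edgeR) and -0.31 (adjusted p = 5.31e-05). Among the citrate, dicarboxylate and oxoacid carriers, 3 of 4 were lower in UTE, the third being Slc25a11, the oxoglutarate carrier, at -0.18, and Slc25a21 was higher, at 0.26 (26.2% and 22.6% of all genes). The call of Slc25a11 was lost when any of 9 mice was left out. None of the 4 passed the test in CAE, CTE or NAE. The median sum of the sinusoidal endothelial markers also differed between genotypes in UTE, as given above, and its part in these values was not tested.

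On the higher side of UTE, 6 of 8 nucleotide and cofactor carriers rose in CryKO livers and 2 fell, Slc25a42 among them (22.6% and 26.2% of all genes). Slc25a33, a pyrimidine nucleotide carrier, had 11.5 to 36 CPM (median 18.1) in CryKO livers, against 9.30 to 16.5 CPM (median 11.9) in WT livers. Its log2 fold change was 0.69 ± 0.15 (adjusted p = 0.000815, edgeR), and that of the other pyrimidine nucleotide carrier, Slc25a36, was 0.57 (adjusted p = 0.0116). Slc25a32, the folate carrier, was higher by 0.43 and Slc25a51 by 0.41. In CAE the log2 fold changes were 0.46 for Slc25a33, 0.39 for Slc25a32 and 0.55 for Slc25a51, which had 32.6 to 105.6 CPM in CryKO livers, against 18.6 to 55.1 CPM in WT livers. The call of Slc25a32 in CAE was lost in 12 of 30 alternatives and its call in NAE in 17 of 30.

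Slc25a42 differed between genotypes in opposite directions in different populations. In NAE it was higher in CryKO livers, with 249 to 500 CPM, against 140 to 386 CPM in WT livers, and a log2 fold change of 0.47 (adjusted p = 0.0173, edgeR). In CAE it was lower, with a median of 2.42 CPM in CryKO livers and 9.43 CPM in WT livers and a log2 fold change of -1.84 ± 0.41 (adjusted p = 0.00167). In UTE it was lower by -0.37 (adjusted p = 0.000854), at 54.2 to 120 CPM in CryKO livers, against 74 to 135 CPM in WT livers, and in CTE no call was made at medians of 50.7 and 53.3 CPM. Counting the protein-coding isoform alone, the log2 fold change was 3.09 in NAE and -4.76 in CAE, with the CPM values given above.

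In the nucleus, Slc25a27 had 11.2 to 24.2 CPM in NAE of CryKO livers, against 3.61 to 10.5 CPM in WT livers. These ranges did not overlap, and the log2 fold change was 1.32 ± 0.15 (adjusted p = 5.49e-06, edgeR). Its pre-mRNA was higher as well, with 43.3 to 97.7 CPM in NTI of CryKO livers, against 16.3 to 44.5 CPM in WT livers and a log2 fold change of 1.43 (adjusted p = 3.99e-07). In UTE it stayed near 1 CPM in both genotypes, at 0.360 to 1.76 CPM in CryKO livers and 0.578 to 1.2 CPM in WT livers. Slc25a47 was higher in NAE by 1.02 ± 0.31 (adjusted p = 0.0302), over wide ranges of 57.8 to 1187 CPM in CryKO livers and 49.6 to 539 CPM in WT livers, and this call was lost when any of 6 mice was left out. Slc25a5 was lower in NAE at a log2 fold change of -0.32 (adjusted p = 0.0163), and Slc25a2 at -0.86 (adjusted p = 0.0309) at a mean of 0.742 CPM in CryKO livers and 1.31 CPM in WT livers. Without WT ZT12 replicate 2, 6 members were called in NAE in place of 10.

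The comparison of Slc25a4 rested on 1 library. In UTE it had 3.55 to 5.56 CPM in CryKO livers. In WT livers it had 2.03 to 4.30 CPM in 11 libraries and 68.1 CPM in ZT0 replicate 2, the library with the muscle genes named above. With all libraries the log2 fold change was -0.01 (adjusted p = 0.988, edgeR), and without that liver it was 0.48 (adjusted p = 0.002). In CTE the same liver had 4.92 CPM of Slc25a4, within the range of the other WT livers.

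Pre-mRNA in the nucleus (NTI) was higher in CryKO livers for 18 of 39 members and lower for 1 (48.8% and 3.65% of all genes). The members' median log2 fold change was 0.37, beside 0.34 over all genes, so most of this difference was shared with the table as a whole. It rests on factors from mRNA counts: with factors from the pre-mRNA counts themselves the median of all genes was 0.00, and 7 members were higher and 7 lower. With library size, 6 were higher and 7 lower. Above the shift of all genes stood Slc25a27, at 1.43, Slc25a32, at 1.02 (adjusted p = 1.36e-05, edgeR), Slc25a36, at 0.87, and Slc25a51, at 0.83. Slc25a32 had 57.8 to 196 CPM of pre-mRNA in CryKO livers, against 26.6 to 85.6 CPM in WT livers.

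**Figure D4:**
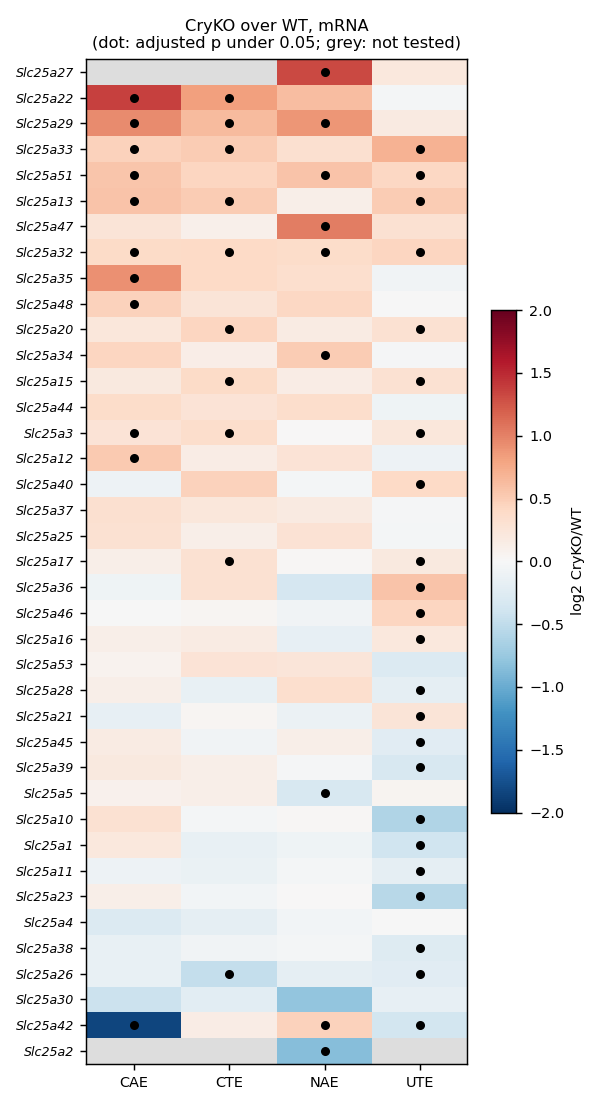
Heat map of the log2 fold change of CryKO over WT livers for 39 members (rows) in CAE, CTE, NAE and UTE (columns), with a dot where adjusted p was under 0.05. Slc25a13 is higher in CAE, CTE and UTE, and Slc25a42 is higher in NAE and lower in CAE and UTE.

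Last, the time of day was examined, by a fit of a 24 h curve to the 12 livers of a genotype; the size of a rhythm is given as the log2 distance from trough to peak. In WT livers 7 of 40 members passed adjusted p under 0.05 in UTE (10.6% of all genes), 1 of 40 in NAE (2.28%), 1 of 38 in CAE (2.91%) and 0 of 38 in NTI (0.563%; edgeR, with 12 members and 11.8% of all genes at an unadjusted p under 0.05 and 3 members called by DESeq2). The member called in NAE and the member called in CAE were both Slc25a25, a carrier of ATP-Mg and phosphate that is regulated by calcium, and it was called in UTE as well. The promoters of the rhythmic members that held one of the searched motifs are printed here, so that their start regions can be read beside the time courses. They are RefSeq sequence of GRCm38.p6, from 250 bases before a start to 50 bases after it, on the strand of the gene, with the searched letters in capitals: TGACGTCA (the cAMP response element), CACGTG (the E-box of clock factors) and AGGTCA or its reverse complement TGACCT (the core motif of nuclear receptors). The matches shown do not overlap one another. Slc25a25 is shown at chr2:32424017-32424316 (minus strand, a start 61 bases from that of a deposited isoform), Slc25a36 at chr9:97110992-97111291 (minus strand) and Slc25a47 at chr12:108850879-108851178 (plus strand).
Slc25a25: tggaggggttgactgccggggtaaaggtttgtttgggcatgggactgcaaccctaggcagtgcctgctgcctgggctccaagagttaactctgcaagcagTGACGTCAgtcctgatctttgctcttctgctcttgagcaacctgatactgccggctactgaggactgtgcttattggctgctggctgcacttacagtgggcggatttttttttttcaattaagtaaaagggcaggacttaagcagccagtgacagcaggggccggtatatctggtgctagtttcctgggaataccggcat
Slc25a36: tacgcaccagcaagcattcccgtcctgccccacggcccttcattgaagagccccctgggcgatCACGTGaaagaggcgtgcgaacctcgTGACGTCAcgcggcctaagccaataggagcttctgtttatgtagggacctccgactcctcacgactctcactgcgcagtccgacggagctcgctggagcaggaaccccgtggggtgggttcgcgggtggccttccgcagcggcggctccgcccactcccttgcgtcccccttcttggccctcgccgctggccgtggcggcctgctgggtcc
Slc25a47: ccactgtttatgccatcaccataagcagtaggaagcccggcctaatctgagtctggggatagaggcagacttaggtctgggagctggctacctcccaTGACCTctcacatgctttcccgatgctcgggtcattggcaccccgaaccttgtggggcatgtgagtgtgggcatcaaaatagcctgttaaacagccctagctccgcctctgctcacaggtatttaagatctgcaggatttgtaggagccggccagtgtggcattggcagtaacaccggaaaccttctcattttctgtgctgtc

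TGACGTCA stood 150 bases before the start shown for Slc25a25 and 161 before that of Slc25a36, and CACGTG 187 before that of Slc25a36. TGACCT stood 153 bases before the start of Slc25a47. Over 32851 promoters of this length, on both strands, 1.79% held TGACGTCA, 7.15% CACGTG and 16.3% AGGTCA. Of the 38 promoters of 30 members matched by symbol, TGACGTCA was found for these 2 genes, CACGTG for 5 genes (Slc25a1, Slc25a13, Slc25a15, Slc25a33 and Slc25a36) and AGGTCA for 4 (Slc25a34, Slc25a39, Slc25a45 and Slc25a47). Other promoters of Slc25a25, at chr2:32451421-32451720 and chr2:32431102-32431401, held none of these motifs. The first of them lay 25 bases from the start of a deposited isoform. Which start the liver used was not tested. Among the other rhythmic members, the promoters of Slc25a22 and Slc25a10 held none, and Slc25a32 and Slc25a37 had no promoter matched by symbol. A match describes letters only, and no binding was measured.

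Slc25a47 had the largest range of the rhythms called in UTE. In WT livers its 2 values were 99.3 and 137 CPM at ZT0, 156 and 338 at ZT4, 385 and 441 at ZT8, 538 and 301 at ZT12, 180 and 146 at ZT16, and 115.6 and 189 at ZT20. The 4 livers of ZT8 and ZT12, the end of the fasting phase and the onset of feeding, held 4 of the 5 highest values, with a log2 range of 1.88 and a peak at ZT 9.52 h (adjusted p = 0.0109, edgeR). In CryKO livers the values were 206 and 260 CPM at ZT0, 266 and 425 at ZT4, 495 and 423 at ZT8, 349 and 325 at ZT12, 163 and 174 at ZT16, and 267 and 164 at ZT20. The fitted range there was 1.26 with a peak at ZT 7.16 h, which missed the threshold (adjusted p = 0.110). The difference of the curves between genotypes was 1.13 on the log2 scale and missed it too (adjusted p = 0.339).

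Slc25a25 peaked at a similar time in WT livers, at ZT 10.3 h in UTE (log2 range 0.97, adjusted p = 0.0152, edgeR), at ZT 11 h in NAE (1.67, adjusted p = 0.0324) and at ZT 10.5 h in CAE (1.55, adjusted p = 0.0211). Its UTE values in WT livers were lowest at ZT0, with 84.2 and 112.9 CPM, and highest at ZT8, with 182 and 212 CPM, and at ZT12, with 147 and 226 CPM. In CryKO livers they were 85.3 and 81.5 CPM at ZT0, 178 and 169 CPM at ZT8, and 210 and 84.9 CPM at ZT12. The calls in the compartments rest on few livers, since that in NAE was lost in 6 of 17 alternatives and that in CAE in 4 of 17, while the call in UTE was lost in none.

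Slc25a22, Slc25a10 and Slc25a32 also peaked from the middle of the light phase to its end in UTE of WT livers, at ZT 8.04, 10.8 and 11.2 h, with log2 ranges of 1.08, 0.68 and 0.86 (adjusted p = 0.0224, 0.0317 and 0.0197, edgeR). Slc25a10 had 239 and 157 CPM at ZT12 in WT livers, against 122 and 120 CPM at ZT20. In CryKO livers its values at these times were 95.9 and 113.4 CPM, and 102.3 and 93.8 CPM, and the fitted range was 0.02. The curves of Slc25a10 did not differ between genotypes at the threshold (0.71, adjusted p = 0.171, edgeR). The WT call of Slc25a10 was lost when any of 6 mice was left out. That of Slc25a22 was lost with any of 3 and that of Slc25a32 with any of 2. Slc25a22 had 191 and 209 CPM at ZT8 and 73.7 and 82.6 CPM at ZT20 in WT livers, and Slc25a32 22.5 and 21 CPM at ZT12 and 12.1 and 10.8 CPM at ZT20.

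The remaining members called in UTE peaked at other times. Slc25a37 was highest at ZT16, with 77.1 and 80.5 CPM, and lowest at ZT4, with 40 and 46.9 CPM, in WT livers (log2 range 0.69, peak at ZT 15.5 h, adjusted p = 0.014, edgeR). In CryKO livers its values stayed between 50.9 and 71.8 CPM. Slc25a37 came nearest to a difference of the curves between genotypes (0.72, adjusted p = 0.0585). Slc25a36 peaked at ZT 0.034 h in WT livers with a log2 range of 0.79 (adjusted p = 0.0248, edgeR), and its values were 3.13 and 3.92 CPM at ZT8 and 3.02 and 3.2 CPM at ZT12. The call of Slc25a36 was lost when any of 4 mice was left out.

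No member passed the test for a rhythm in CryKO livers in NAE, CAE or UTE (0.0169%, 0.0% and 0.0512% of all genes; edgeR). At an unadjusted p under 0.05 there were 11, 7 and 11 members of 40, 38 and 39 (12.1%, 6.46% and 12.4% of all genes), and DESeq2 called 2, 2 and 5. The test of the difference between genotypes also gave 0 members in NAE, CAE and UTE (0.7%, 0.698% and 1.89% of all genes; edgeR), with 3, 5 and 5 members at an unadjusted p under 0.05 (9.79%, 12.7% and 14.9% of all genes) and 0, 0 and 1 called by DESeq2. A rhythm called in WT livers and not in CryKO livers is therefore not shown to differ between them for any member. The WT calls depend on single livers: without ZT4 replicate 1, the liver with the inflammation genes named above, 11 members passed in UTE, 4 in CAE and 3 in NAE, and without ZT12 replicate 1 there were 4 in UTE. Calls over all genes rose as well without ZT4 replicate 1, to 1567 in UTE, 513 in CAE and 358 in NAE (1247, 329 and 271 with it). The call of Slc25a25 in CAE was lost without ZT8 replicate 1 and that in NAE without ZT0 replicate 2, among others.

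**Figure D5:**
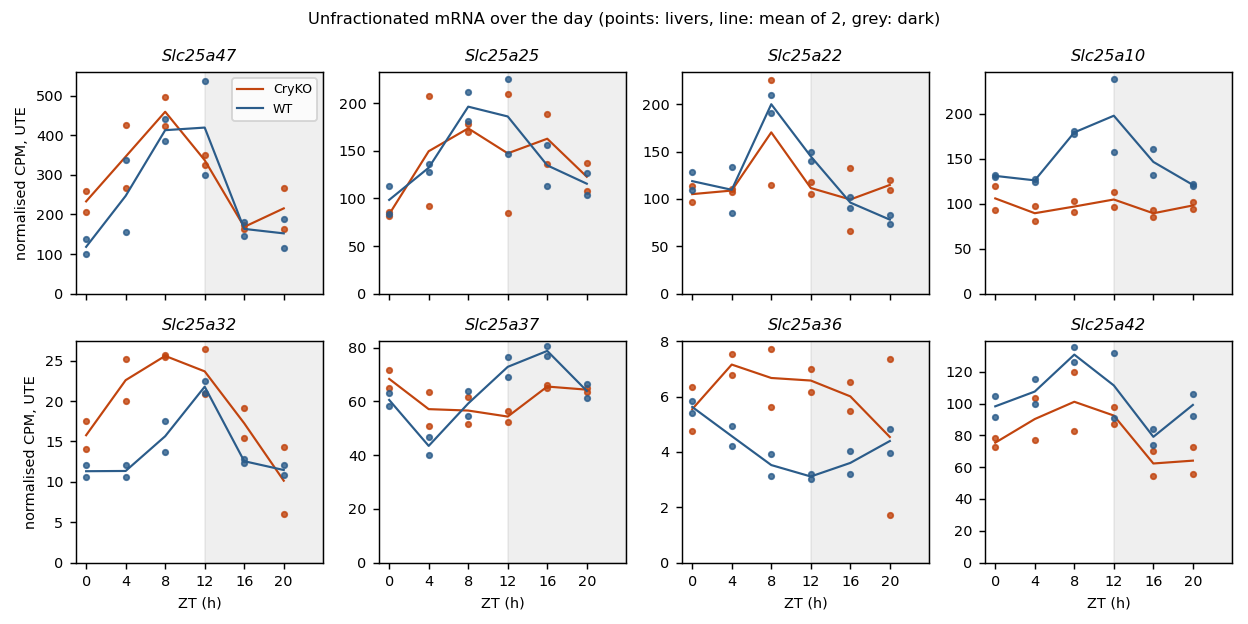
CPM in UTE over time of day (ZT in h) for Slc25a47, Slc25a25, Slc25a22, Slc25a10, Slc25a32, Slc25a37, Slc25a36 and Slc25a42, with 1 point per liver and lines through the mean of the 2 livers of a time, for CryKO and WT livers. In WT livers Slc25a47 is highest at ZT8 and ZT12, and Slc25a10 in CryKO livers lies between 81 and 119.2 CPM, below all WT livers.

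For comparison, a list of 54 other genes of mitochondrial transport was followed, 50 of which were tested. Of these, 6 were higher and 39 lower in the nucleus of CryKO livers, and 8 higher and 40 lower in WT livers (median log2 ratios of -1.49 and -1.44), beside the near even split of the carriers. Over all genes, 42.9% were higher and 39.5% lower in CryKO livers, and 42.8% and 36.8% in WT livers. The 25 translocases of the outer and inner membrane, which import proteins, had 2 higher and 21 lower in CryKO livers and 2 higher and 23 lower in WT livers. The 4 outer membrane channels were lower in the nucleus in both genotypes, as were the 3 detected genes of the carrier family under other symbols, Mtch1, Mtch2 and Ucp2. Between genotypes the list had 3 genes higher and 18 lower in CAE of CryKO livers, 7 and 21 in CTE, 1 and 6 in NAE, and 13 and 14 in UTE. The shares of all genes were 17.2% higher and 18.8% lower in CAE, and 18.9% and 20.9% in CTE. In NAE they were 8.03% and 9.11%, and in UTE 22.6% and 26.2%. No test set the carriers against this list.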

How the data were processed

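RNA of 24 livers was sequenced in 120 libraries. Per the methods of the study, nuclei were separated on a sucrose cushion, total RNA was depleted of ribosomal RNA, poly(A) RNA was selected on stranded libraries, and rat liver RNA was added as a spike-in. The authors mapped reads with kallisto 0.46.0 to a joint index of spliced and unspliced transcripts (GRCm38) and deposited estimated counts per gene and isoform. These were rounded to whole numbers for tests. Genes filed on repeated identical rows were merged (12383 rows gave 12252), and 98.27% of 41105 isoforms were found in the annotation. The members Slc25a11, Slc25a23, Slc25a25, Slc25a26 and Slc25a35 overlap a gene of the deposited table on the other strand, and counting was stranded; overlaps with genes outside the table, some on the same strand, were not separated.

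Tests were edgeR's quasi-likelihood fits (edgeR 4.0.16, limma 3.58.1, R 4.3.3) over all genes with at least 10 counts in a share of 0.5 of the libraries of a fit, with TMM factors from mRNA counts and Benjamini-Hochberg adjustment over all genes tested. DESeq2 1.42.0 was an alternative. Library size as an alternative took mRNA and pre-mRNA counts together, so it changed both the counts summed and the factors. Figures and tables used Python 3.11.15, numpy 2.4.6, pandas 2.3.3 and matplotlib 3.10.9. The 24 h curve was a cosine and a sine term. Log2 RPKM used 0.5 added counts and isoform-weighted lengths, which 12179 genes had. CPM within a population and CPM on the scale of both compartments differ by their factors. Each fit was tested on simulated data.

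Members were taken by symbol, and the members, the roles and the gene lists were chosen with earlier results of these data known. Any member could be named: those past a threshold (the 4 largest in each direction where over 8 passed), the 3 highest and 3 lowest in CAE, and 16 carriers fixed for their role in liver; muscle and inflammation genes fell outside this rule. One member is counted in the totals and is not reported here by name or in the figures. Library totals, in M counts, were 31.8 to 46.7 in NT, 43.4 to 62.5 in NA, 7.07 to 23.3 in CT, 17.4 to 26.7 in CA and 26.7 to 42.8 in UT. Libraries of one liver were taken to share a replicate number: deviations of nuclear and cytoplasmic poly(A) libraries with the same number correlated at -0.218 to 0.509 over times in CryKO livers and at 0.198 to 0.541 in WT livers, and the lowest value between cytoplasmic total and unfractionated libraries of CryKO livers was -0.402, so the pairing is not certain there. Numbers did not pair mice across genotypes.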

Additional observations from a re-analysis of the deposited data

Results flagged for a closer look

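The ratio of nucleus to cytoplasm differed between genotypes for 3 carriers, by the interaction term of edgeR's quasi-likelihood test over 48 libraries. For Slc25a42 the log2 ratio was 5.78 in CryKO livers and 3.68 in WT livers, and the term was 2.257 (adjusted p = 0.00102). For Slc25a13 it was -1.99 in CryKO livers and -1.45 in WT livers, with a term of -0.5022 (adjusted p = 0.023). For Slc25a5 it was -2.52 in CryKO livers and -2.04 in WT livers, with a term of -0.4506 (adjusted p = 0.0297). The call of Slc25a42 held under each alternative run, at 2.34 with DESeq2 and 1.88 with library size. None of these alternatives used total RNA, in which the ratio given above was lower in CryKO livers than in WT livers. With its protein-coding isoform alone, counted after the data had been seen, the term was 7.77; that isoform was below 0.01 CPM in 8 of 12 CAE libraries of CryKO livers, so the size of this term rests on values near 0.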

How the results depend on the processing

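Over the 150 calls on single members, 3724 values were recomputed: 3498 kept their direction and their side of the threshold, 223 lost the threshold and 3 reversed. The 3 reversals came with protein-coding isoforms only, chosen after seeing the data: Slc25a3 at -4.30 in CryKO livers and -3.61 in WT livers, and Slc25a42 at -2.82 in WT livers. With library size in place of TMM factors, 29 members were called in CAE (12 before), 18 in CTE (11), 20 for the ratio by genotype (3), 0 for the WT rhythm in CAE (1) and 1 for the rhythm by genotype in UTE (0). Median-ratio factors left 1 call of the ratio by genotype. Total RNA left 7 WT ratios beyond 2 on the log2 scale, against 11. DESeq2 called more rhythms: 3 in NTI, 7 in NAE, 5 in CAE and 12 in UTE of WT livers (0, 1, 1 and 7 with edgeR), 2, 2 and 5 in NAE, CAE and UTE of CryKO livers (0 each), and 1 by genotype in UTE (0). Factors from pre-mRNA counts gave 1 WT rhythm in NTI.

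Leaving out each mouse in turn gave 28 to 30 calls of nucleus against cytoplasm in CryKO livers (9 to 11 beyond 2) and 29 to 31 in WT livers (9 to 12), 2 to 4 of the ratio by genotype, 10 to 14 in CAE, 6 to 11 in NAE, 11 to 14 in CTE, 21 to 24 in UTE and 17 to 21 in NTI. Rhythms numbered 0 to 0 in NAE, 0 to 1 in CAE and 0 to 1 in UTE of CryKO livers; 0 to 1 in NTI, 0 to 3 in NAE, 0 to 4 in CAE and 4 to 11 in UTE of WT livers; and 0 to 0, 0 to 0 and 0 to 1 by genotype in NAE, CAE and UTE.

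The block was the liver in fits that set nucleus against cytoplasm, and the replicate number in the others. With the block 149 of 150 calls held, and that of Slc25a53 in WT livers was lost. Nucleus against cytoplasm then had 15 members higher and 19 lower in CryKO livers and 15 and 16 in WT livers. Over all genes, the block gave 1561 calls of the ratio by genotype (995 without), and 24 and 210 WT rhythms in NTI and CAE (63 and 329), and 1 in NAE of CryKO livers (2). Library size gave 4912 ratios by genotype, 3235 genotype calls in NTI (5853), 157 and 134 WT rhythms in NTI and CAE, and 23 in UTE of CryKO livers (6); pre-mRNA factors gave 3492 genotype calls and 140 WT rhythms in NTI. DESeq2 called 457, 941, 962 and 2315 WT rhythms in NTI, NAE, CAE and UTE (63, 271, 329 and 1247), 294, 69 and 396 in NAE, CAE and UTE of CryKO livers (2, 0 and 6), and 255, 267 and 545 by genotype (83, 79 and 221). Members of few counts, Slc25a2 and Slc25a27 first, limit what CAE can show. The causes of these shifts were not tested.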
